A study of Homo sapiens with 6 samples.

Results

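The aminoacyl-tRNA synthetases were examined in OCI-AML2 cells, a long-established line from a human acute myeloid leukaemia, in which the tafazzin gene TAZ had been targeted by hairpin RNAs. The members were chosen by symbol: 20 genes for cytosolic enzymes and 16 genes with symbols ending in 2 for mitochondrial enzymes, which makes 36 of the 13002 genes in the tables. All 36 were present with a value in every library. Symbols are the older ones of the deposited tables, so that AARS is the gene now called AARS1. The study has 3 groups of 2 libraries, lettered A and B: TAZ shRNA1, TAZ shRNA2 and a control hairpin. All groups received lentivirus with protamine sulfate and were then selected for 3 days in puromycin at 2.0 µg/mL, so the control cells carry a hairpin vector and the drug too. The labels call the control a scramble hairpin, while the control columns are headed GFP. The labels describe the cells as an engineered leukaemic stem cell line of blood origin. Whether the lettered libraries are separate cultures is not stated, and p-values reflect only how far they differ, which can be technical variation. In bulk RNA, fewer cells making a transcript and less of it per cell cannot be told apart.

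Aminoacyl-tRNA synthetases couple amino acids to their tRNAs and so supply the ribosome with charged tRNA. Most amino acids have a nuclear gene for the cytosolic enzyme and another for an enzyme imported into mitochondria, where the few proteins encoded by mitochondrial DNA are made. GARS and KARS are exceptions, since 1 gene gives both forms. Many cytosolic synthetase genes are textbook targets of ATF4, the transcription factor of the amino acid stress response, which binds the C/EBP-ATF response element TGATGNAA. Mitochondrial synthetase genes are generally not counted among these targets.

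The libraries held 18824625 to 20976254 reads in listed genes. TAZ had 4.02 and 4.10 RPKM (reads per kilobase of gene, scaled by depth) with shRNA1 and 1.47 and 2.13 RPKM with shRNA2, against 11.3 and 11.9 RPKM in control A and B. It fell with both hairpins (log2 fold change −1.41 and −2.41, limma adjusted p = 0.0020 and 0.0025). All 8 myeloid markers were in the tables. Their summed level was 5029 to 5581 RPKM with shRNA1, 3780 to 4544 RPKM with shRNA2 and 933 to 1088 RPKM in the control, most of it lysozyme (LYZ). The other markers did not all move with LYZ. Mean RPKM with shRNA1, with shRNA2 and in the control was 35.4, 25.4 and 19.8 for CD33, 131, 137 and 125 for SPI1, and 4.89, 1.26 and 10.6 for MPO. The T cell and B cell markers listed summed to at most 1.21 RPKM in any library, and the erythroid and epithelial markers chosen were not among the listed genes. The myeloid sum moved with the groups, and its part in the results on synthetases was not tested.

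A difference between the control libraries bears on every comparison with the control. Control B was at least 1.5-fold above control A for 10 of the 20 cytosolic synthetases and for 0 of the 16 mitochondrial ones, against 3.26% of 10660 genes. With shRNA1 and with shRNA2, no cytosolic synthetase differed that much between libraries A and B in either direction, where 1.67% and 3.05% of genes were higher in B and 1.10% and 2.63% lower. Values against both controls, against control A and against control B are therefore given below.

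Of the 10 cytosolic synthetases at least 1.5-fold higher in control B, 7 hold the ATF4 element in their promoter, so these sites are shown first. RefSeq promoter windows (build GRCh38.p14, 250 bases before to 50 bases after each start) were found for 30 of the 36 members. The windows were searched on both strands for TGATGNAA, and the 30 bases around each match are printed 5′ to 3′ on the strand of the gene, with the match in capitals. A match on the strand opposite to the gene appears as its reverse complement.
AARS (chr16:70289675-70289704, minus strand): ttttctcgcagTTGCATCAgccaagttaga
CARS (chr11:3057407-3057436, minus strand): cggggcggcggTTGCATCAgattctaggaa
GARS (chr7:30594834-30594863, plus strand): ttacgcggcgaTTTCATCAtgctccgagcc
IARS (chr9:92293692-92293721, minus strand): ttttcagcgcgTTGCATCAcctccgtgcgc
MARS (chr12:57488053-57488082, plus strand): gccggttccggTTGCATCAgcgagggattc
NARS (chr18:57621804-57621833, minus strand): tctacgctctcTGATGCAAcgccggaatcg
TARS (chr5:33440956-33440985, plus strand): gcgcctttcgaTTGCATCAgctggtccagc
YARS2 (chr12:32756076-32756105, minus strand): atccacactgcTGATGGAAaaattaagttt

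The element was present in 7 of the 16 cytosolic members with a window, and 6 of the 7 held the same 8 letters on one strand or the other. Among mitochondrial members it was present in 1 of 14, YARS2. Over all listed genes with a window, 282 of 10257 (2.75%) held it. Counted from the first transcribed base as 0, the match began between positions −33 (GARS) and 14 (NARS) in 6 of the 7 cytosolic windows, at −187 in AARS and at −197 in YARS2. The E-box CACGTG, bound by MYC and MAX, was present in 1 cytosolic member (IARS) and 3 mitochondrial members (CARS2, EARS2 and MARS2), against 12.7% of listed genes. These matches describe the letters of the windows and are not evidence of binding in these cells.

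Cytosolic synthetases were the more abundant set. Group means ranged over 20.8 to 132 RPKM with shRNA1, 18.9 to 114 RPKM with shRNA2 and 32.4 to 158 RPKM in the control, with medians of 60.1, 55.4 and 74.4 RPKM. Mitochondrial synthetases had medians of 10.4 RPKM with shRNA1, 9.17 RPKM with shRNA2 and 10.9 RPKM in the control. Highest in the control by mean were GARS, the glycyl enzyme, and, among mitochondrial enzymes, the isoleucyl enzyme IARS2 at 129 and 134 RPKM with shRNA1, 111 and 112 RPKM with shRNA2 and 97.1 and 111 RPKM in the control. The rank of GARS rested on control B, where it had 221 RPKM. In control A it had 94.7 RPKM, below FARSA at 156 RPKM. Lowest in the control by mean were SARS, the seryl enzyme, and PARS2, the mitochondrial prolyl enzyme. PARS2 rested on 94 to 140 recovered reads per library and had 2.22 and 2.34 RPKM with shRNA1, 2.20 and 1.96 RPKM with shRNA2 and 2.53 and 2.89 RPKM in the control. SARS had 27.8 and 29.2 RPKM with shRNA1, 25.2 and 25.3 RPKM with shRNA2 and 25.1 and 39.8 RPKM in control A and B. CARS was below SARS in control A (24.5 RPKM) and in every hairpin library.

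In 15 of 17 pairings of a cytosolic enzyme with the mitochondrial enzyme for the same amino acid, the cytosolic one was higher in every library. The exceptions were isoleucine, where IARS was at 0.60 and 0.67 of the IARS2 level with shRNA1, 0.48 and 0.50 with shRNA2 and 0.57 and 0.82 in the control, and cysteine. CARS was at 0.65 and 0.68 of the CARS2 level with shRNA1, 0.56 and 0.77 with shRNA2 and 0.68 in control A, but 1.40 in control B. Control B was thus the only library of the 6 in which the cytosolic cysteinyl enzyme exceeded its mitochondrial counterpart. Summed over the cytosolic set, RPKM came to 1427 and 1383 with shRNA1, 1236 and 1205 with shRNA2 and 1431 and 1999 in control A and B. The mitochondrial sum was 317 and 315 with shRNA1, 283 and 267 with shRNA2 and 283 and 309 in control A and B. For the cytosolic sum, control A stood with the shRNA1 libraries and control B above all others. For the mitochondrial sum, both shRNA1 libraries stood above both controls.

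**Figure D1:**
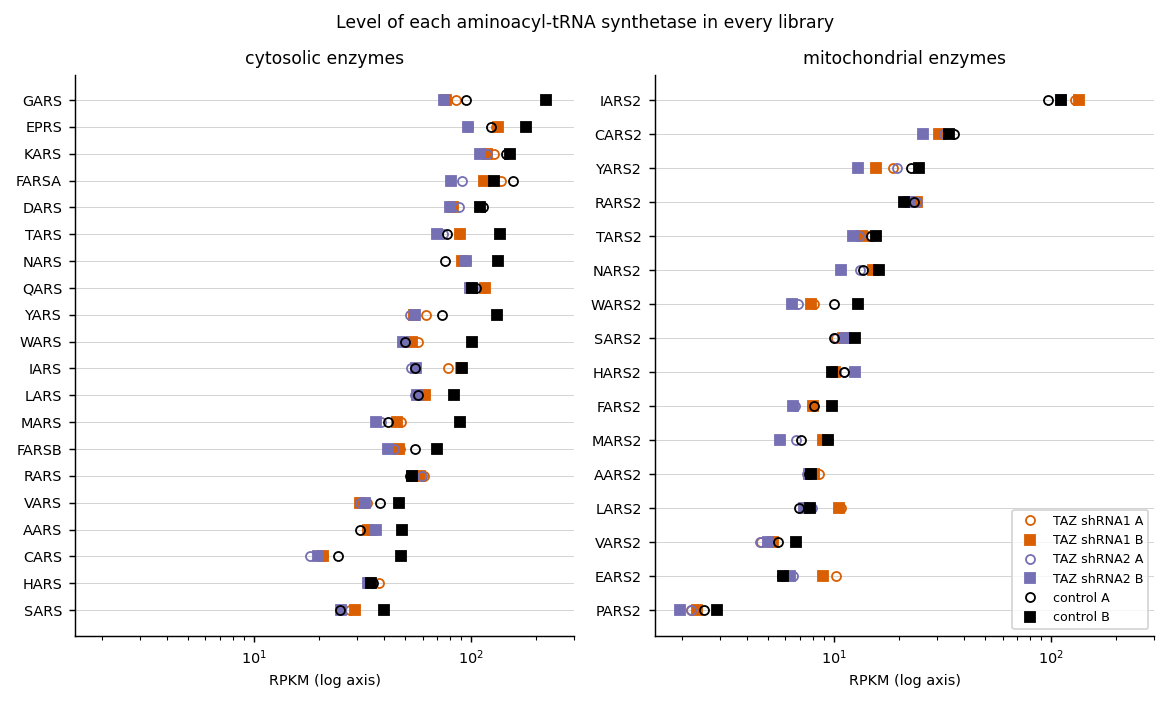
RPKM on a log axis of each synthetase in every library, for cytosolic (left) and mitochondrial (right) enzymes, ordered by mean control level; circles are libraries A and squares libraries B. For many cytosolic enzymes the black square of control B stands alone on the right, as for GARS at 221 RPKM.

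Of the 20 cytosolic synthetases, 11 are widely reported as ATF4 targets, a list drawn up with earlier results of these data known. It holds all 10 cytosolic members that were at least 1.5-fold higher in control B, and 0 of the other 9 were. Contrasts between the 11 and the other 9 are therefore descriptions only, and a part of ATF4 in them was not tested. Control B had the highest level of the 6 libraries for each of the 11, for 4 of the other 9 cytosolic enzymes and for 8 of the 16 mitochondrial ones, against 17.3% of genes. The ratio of control B to control A had a median of 1.77 in the 11 (1.44 to 2.34) and 1.03 in the other 9 (0.82 to 1.46), and of 1.13 in the mitochondrial set (0.88 to 1.33). The median over all genes was 1.01. The 7 cytosolic members with TGATGNAA in their window were all at least 1.5-fold higher in control B (1.56 to 2.34), and of the 9 with a window but no match, WARS and SARS were.

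Extremes of this ratio were GARS (gene ID 2617) and FARSA (gene ID 2193), the alpha subunit of the phenylalanyl enzyme. GARS had 85.3 and 77.2 RPKM with shRNA1 and 74.9 and 74.9 RPKM with shRNA2, against 94.7 RPKM in control A and 221 RPKM in control B. FARSA had 137 and 115 RPKM with shRNA1 and 90.6 and 81.3 RPKM with shRNA2, against 156 RPKM in control A and 128 RPKM in control B. MARS, the methionyl enzyme, had 47.8 and 45.9 RPKM with shRNA1 and 38.5 and 36.7 RPKM with shRNA2, against 41.5 RPKM in control A and 89.3 RPKM in control B. For MARS, control A thus lay between the hairpins.

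Some other genes of the amino acid stress axis also differed between the control libraries. Of the 8 listed, 2 (ASNS and SESN2) were at least 1.5-fold higher in control B and 1 (DDIT3) was lower by at least as much, against 3.26% and 5.56% of all genes, and the median ratio of control B to control A was 1.26. ASNS, asparagine synthetase, had 23.6 and 24.8 RPKM with shRNA1 and 20.1 and 17.1 RPKM with shRNA2, against 31.6 RPKM in control A and 128 RPKM in control B. SESN2, a leucine sensor of the mTORC1 pathway, had 4.71 and 5.10 RPKM with shRNA1 and 5.61 and 6.19 RPKM with shRNA2, against 8.21 and 22.5 RPKM in control A and B. ATF4 itself had 244 and 226 RPKM with shRNA1 and 186 and 166 RPKM with shRNA2, against 451 and 602 RPKM in control A and B. DDIT3, another gene of the axis, was lower in control B than in control A, with 5.76 and 6.27 RPKM with shRNA1 and 7.34 and 7.86 RPKM with shRNA2, against 17.8 and 6.53 RPKM in control A and B. The part of this axis in the synthetase levels was not tested.

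**Figure D2:**
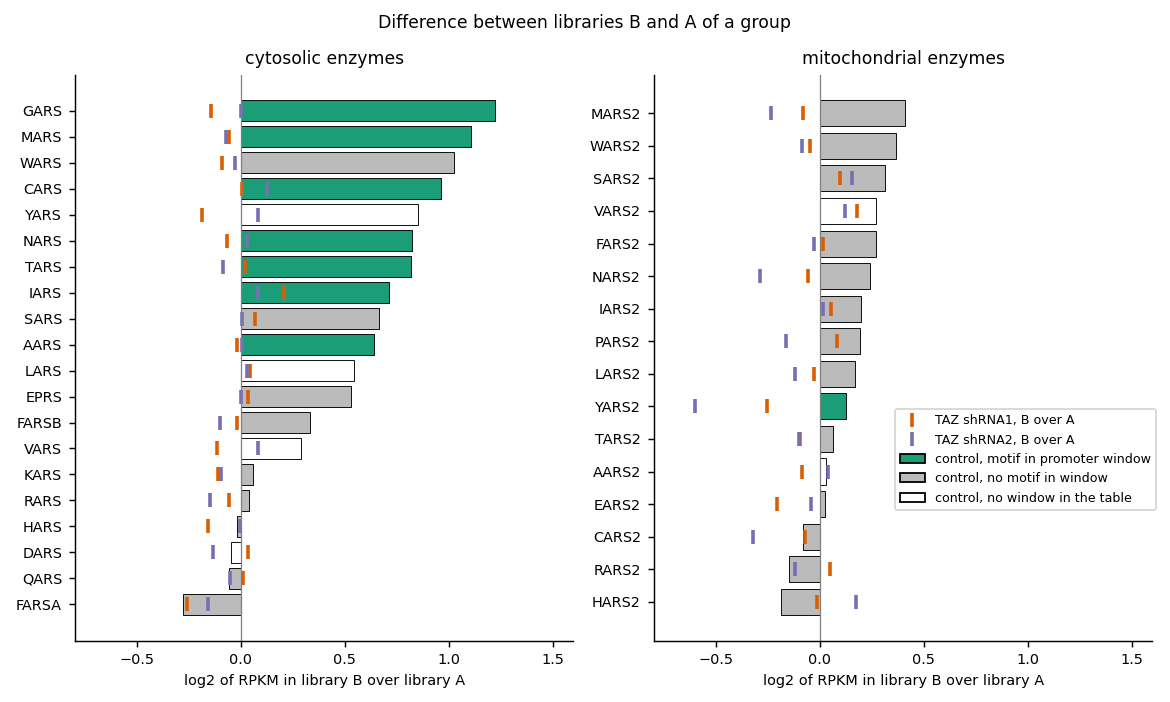
The log2 ratio of RPKM in library B to library A, as bars for the control and as ticks for TAZ shRNA1 and TAZ shRNA2, for each cytosolic (left) and mitochondrial (right) enzyme; green bars have TGATGNAA in the promoter window, grey bars do not, and white bars have no window in the table. The green cytosolic bars reach from 1.56-fold (AARS) to 2.34-fold (GARS), while the hairpin ticks stay near 0.

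Against both control libraries, few synthetases passed the test. limma was run, without the letters as a block, on log2(RPKM + 0.5) for every gene averaging 1 RPKM or more, and genes were called at a Benjamini-Hochberg adjusted p under 0.05. With shRNA1, 3 of 36 members were called (2 rose and 1 fell), against 18.6% of all genes tested (9.99% rose and 8.58% fell). With shRNA2, 2 of 36 were called and both fell, against 15.7% of all genes (8.12% rose and 7.61% fell). Both shares lay below those of all genes, and no member was called with both hairpins. These counts depend on the model: with the letters as a block, more members were called with each hairpin and some with both. The block counts are given in the closing section, without the share of all genes called, and nothing states that the letters pair the libraries. Since the hairpins share their control libraries, their values are set side by side.

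Most cytosolic members had lower values with either hairpin, mostly without passing the test. The median log2 fold change of the 20 was −0.20 with shRNA1 and −0.41 with shRNA2, with 16 and 19 members below 0, while the median over all genes was 0.00 in both comparisons. Both hairpin libraries lay below both control libraries for 7 of the 20 with shRNA1 and 13 with shRNA2, against 32.5% and 31.1% of genes. In the mitochondrial set the median was −0.06 with shRNA1 and −0.27 with shRNA2. Both hairpin libraries lay below both controls for 7 of 16 mitochondrial members with shRNA1 and 9 with shRNA2.

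**Figure D3:**
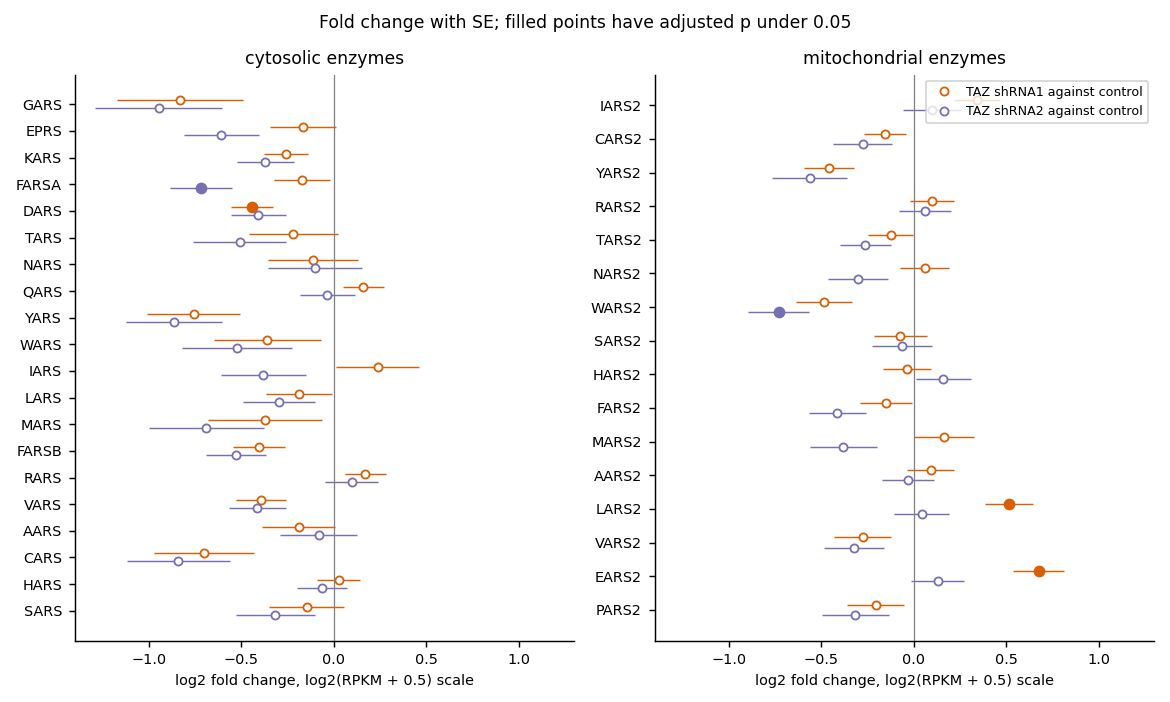
The log2 fold change with its SE of each synthetase with TAZ shRNA1 (orange) and TAZ shRNA2 (purple) against the control, for cytosolic (left) and mitochondrial (right) enzymes; filled points have an adjusted p under 0.05. The filled points are DARS, EARS2 and LARS2 for shRNA1 and FARSA and WARS2 for shRNA2.

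Most cytosolic values differed with the control library used. Against control B alone, 14 of the 20 cytosolic members fell with shRNA1 (median log2 fold change −0.49) and 10 with shRNA2 (median −0.61). Those counts compare with 14.9% and 7.02% of all genes that fell. Against control A alone, 2 fell and 1 rose with shRNA1 (median 0.09) and 1 fell with shRNA2 (median −0.12), where 20.7% and 9.11% of genes fell and 20.7% rose with shRNA1. Each of these fits took its spread from hairpin libraries only, as if a lone control library varied like them. The tables go against that. Across genes, the SD of the difference between libraries B and A was 0.34 for the controls, against 0.21 (shRNA1) and 0.29 (shRNA2). Of the 20 cytosolic members, 10 differed at least 1.5-fold between the controls and 0 between libraries of either hairpin. The calls against a lone control can therefore be too many for these genes, and only the medians are compared. The 11 enzymes widely reported as ATF4 targets were listed with earlier results known and hold every cytosolic member at least 1.5-fold higher in control B. A gap between their values against the 2 controls follows largely from that and is a description only. Their median log2 fold change against control B alone was −0.63 with shRNA1 and −0.92 with shRNA2. Against control A alone it was 0.15 with shRNA1, with IARS at 0.59 and YARS at −0.33, and −0.10 with shRNA2. The direction of the shRNA1 median of the cytosolic set thus differed between the control libraries, and the direction of the shRNA2 median did not.

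**Figure D4:**
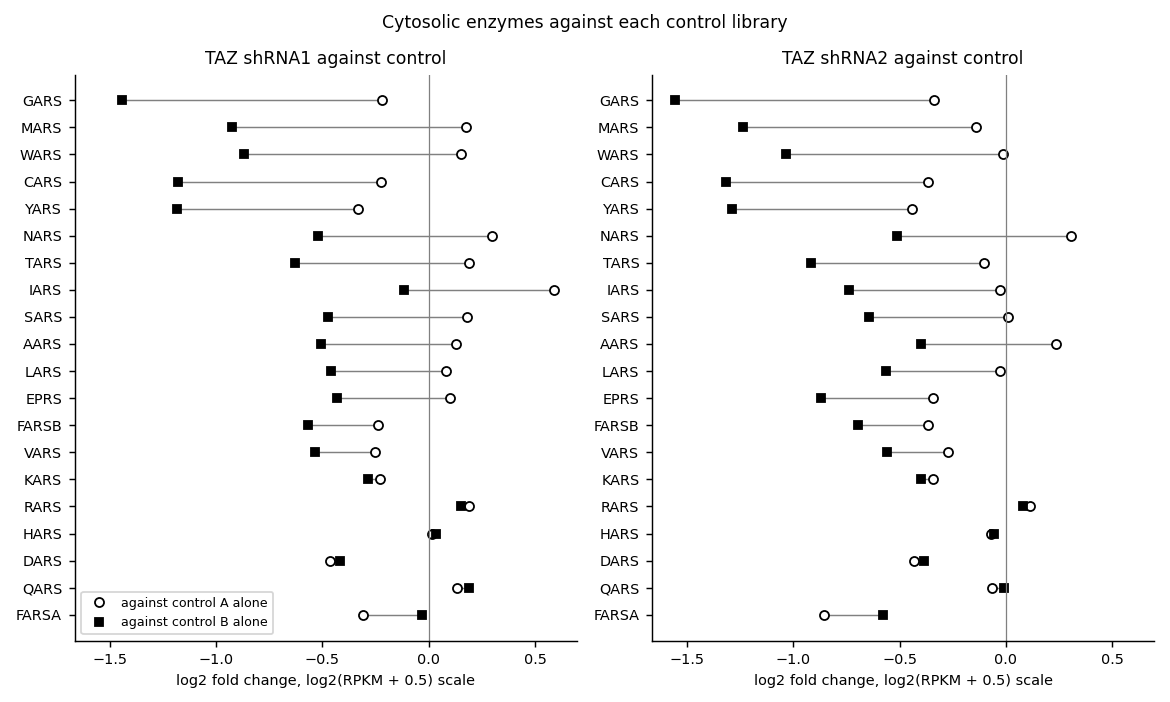
The log2 fold change of the 20 cytosolic synthetases with TAZ shRNA1 (left) and TAZ shRNA2 (right) against control A alone (open circles) and control B alone (squares), ordered by the difference between the controls. For GARS with shRNA1 the values are −0.22 and −1.44, while for KARS, RARS, HARS, DARS and QARS the symbols nearly coincide.

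Described next are DARS, RARS, QARS and HARS, which had similar levels in both controls, and FARSA and FARSB, which differed more. The ratio of control B to control A was 0.82 for FARSA and 1.26 for FARSB. DARS (gene ID 1615), the aspartyl enzyme of the multisynthetase complex, had 81.3 and 83.2 RPKM with shRNA1 and 88.2 and 80.4 RPKM with shRNA2, against 114 and 110 RPKM in control A and B. All 4 hairpin libraries lay below both controls. DARS fell with shRNA1 (log2 fold change −0.44, SE 0.11, adjusted p = 0.036), and its value with shRNA2 was −0.41 (SE 0.15, adjusted p = 0.11). Without shRNA1 A or shRNA1 B its adjusted p was 0.26 or 0.29.

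FARSA fell with shRNA2 (log2 fold change −0.72, SE 0.17, adjusted p = 0.031), and its value with shRNA1 was −0.17 (SE 0.15, adjusted p = 0.44). FARSB encodes the beta subunit of the same phenylalanyl enzyme and had 47.2 and 46.6 RPKM with shRNA1 and 44.4 and 41.5 RPKM with shRNA2, against 55.4 and 69.8 RPKM in control A and B. Its libraries did not overlap between either hairpin and the control, but its fold changes of −0.40 and −0.53 missed the threshold (adjusted p = 0.082 and 0.065). Without control A or without shRNA2 B, the adjusted p of FARSA with shRNA2 was 0.12 in each case.

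RARS, QARS and HARS are the arginyl, glutaminyl and histidyl enzymes. Their log2 fold changes were 0.17, 0.16 and 0.03 with shRNA1 and 0.10, −0.04 and −0.06 with shRNA2, none of them called. HARS had 37.7 and 33.8 RPKM with shRNA1 and 33.6 and 33.6 RPKM with shRNA2, against 35.3 and 34.9 RPKM in control A and B. HARS2, its mitochondrial paralog, had 10.3 and 10.2 RPKM with shRNA1 and 11.1 and 12.5 RPKM with shRNA2, against 11.2 and 9.85 RPKM in control A and B.
HARS and HARS2 are read in opposite directions from starts with 84 bases between them, which are shown because the same stretch lies upstream of both genes. The line gives these bases on the plus strand, on which HARS2 lies to the right and HARS, on the minus strand, to the left.
HARS to HARS2 (chr5:140691371-140691454, plus strand): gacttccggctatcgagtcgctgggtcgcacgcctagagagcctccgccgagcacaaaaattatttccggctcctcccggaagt
Neither TGATGNAA nor CACGTG occurs in the windows of these genes, and neither gene was called in any comparison. Paralogous reads could be split between them by the counting, which makes their separate levels uncertain.

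YARS, VARS, CARS, GARS and KARS complete the cytosolic members with the smallest p over both hairpins, and none passed the test against both controls. YARS, the tyrosyl enzyme, had 62.1 and 54.5 RPKM with shRNA1 and 52.5 and 55.6 RPKM with shRNA2, against 73.4 and 133 RPKM in control A and B. All 4 hairpin libraries lay below both controls, and the log2 fold changes were −0.76 (SE 0.25, adjusted p = 0.076) and −0.86 (SE 0.26, adjusted p = 0.060). VARS, the valyl enzyme, had 33.4 and 30.9 RPKM with shRNA1 and 30.8 and 32.5 RPKM with shRNA2, against 38.3 and 46.8 RPKM in control A and B. CARS, the cysteinyl enzyme, had 20.8 and 20.9 RPKM with shRNA1 and 18.1 and 19.7 RPKM with shRNA2, against 24.5 and 47.7 RPKM in control A and B. The hairpin libraries of VARS and CARS also lay below both controls.

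KARS and GARS each serve the cytosol and the mitochondrion, and they differed in how far the controls agreed. KARS, the lysyl enzyme, had 128 and 119 RPKM with shRNA1 and 118 and 111 RPKM with shRNA2, against 145 and 151 RPKM in control A and B. Its log2 fold changes were −0.26 (SE 0.12, adjusted p = 0.16) and −0.37 (SE 0.15, adjusted p = 0.14). For GARS they were −0.83 (SE 0.34, adjusted p = 0.13) and −0.95 (SE 0.34, adjusted p = 0.10), over control libraries that differed 2.34-fold.

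WARS, the tryptophanyl enzyme, is the member best known as inducible by interferon gamma. WARS had 56.9 and 53.4 RPKM with shRNA1 and 49.7 and 48.6 RPKM with shRNA2, against 49.6 RPKM in control A and 101 RPKM in control B. It was called with neither hairpin (log2 fold change −0.36 and −0.52, adjusted p = 0.40 and 0.26). The levels of WARS with the hairpins were near control A, and all were below control B.

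Mitochondrial synthetases gave 2 of the 3 calls with shRNA1, both upward. That is 12.5% of the mitochondrial set, near the 9.99% of all genes that rose. EARS2 (gene ID 124454), the mitochondrial glutamyl enzyme, had 10.3 and 8.92 RPKM with shRNA1 and 6.50 and 6.31 RPKM with shRNA2, against 5.77 and 5.86 RPKM in control A and B. It rose with shRNA1 (log2 fold change 0.67, SE 0.14, adjusted p = 0.019), and its value with shRNA2 was 0.13 (SE 0.14, adjusted p = 0.57). LARS2 (gene ID 23395), the mitochondrial leucyl enzyme, had 10.8 and 10.6 RPKM with shRNA1 and 7.92 and 7.28 RPKM with shRNA2, against 6.94 and 7.80 RPKM in control A and B. It rose with shRNA1 (0.52, SE 0.13, adjusted p = 0.035), and its value with shRNA2 was 0.04 (SE 0.15, adjusted p = 0.87). The shRNA1 libraries stood above the other 4 for both genes. For EARS2 with shRNA1, the log2 fold change was 0.68 against control A alone and 0.66 against control B alone. The shRNA1 calls of EARS2 and LARS2 were each lost without shRNA1 A or without shRNA1 B.

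WARS2 (gene ID 10352), the mitochondrial tryptophanyl enzyme, had 8.11 and 7.84 RPKM with shRNA1 and 6.86 and 6.46 RPKM with shRNA2, against 10.0 and 12.9 RPKM in control A and B. All hairpin libraries lay below both controls. It fell with shRNA2 (log2 fold change −0.73, SE 0.17, adjusted p = 0.028), and its value with shRNA1 was −0.49 (SE 0.15, adjusted p = 0.065). Without shRNA2 A or shRNA2 B its adjusted p with shRNA2 was 0.052 or 0.098.

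YARS2, the mitochondrial tyrosyl enzyme and the mitochondrial member with TGATGNAA in its window, had 18.7 and 15.7 RPKM with shRNA1 and 19.6 and 12.9 RPKM with shRNA2, against 22.8 and 24.8 RPKM in control A and B. All hairpin libraries lay below both controls, and the fold changes of −0.46 and −0.56 missed the threshold (adjusted p = 0.053 and 0.099). YARS2 was also the member with the widest gap between hairpin libraries, shRNA2 B being at 0.66 of shRNA2 A. VARS2, CARS2 and PARS2, the valyl, cysteinyl and prolyl enzymes of mitochondria, had log2 fold changes of −0.28, −0.16 and −0.21 with shRNA1 and −0.33, −0.28 and −0.32 with shRNA2, none of them called. IARS2 had 0.34 with shRNA1 (adjusted p = 0.095) and 0.10 with shRNA2.

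**Figure D5:**
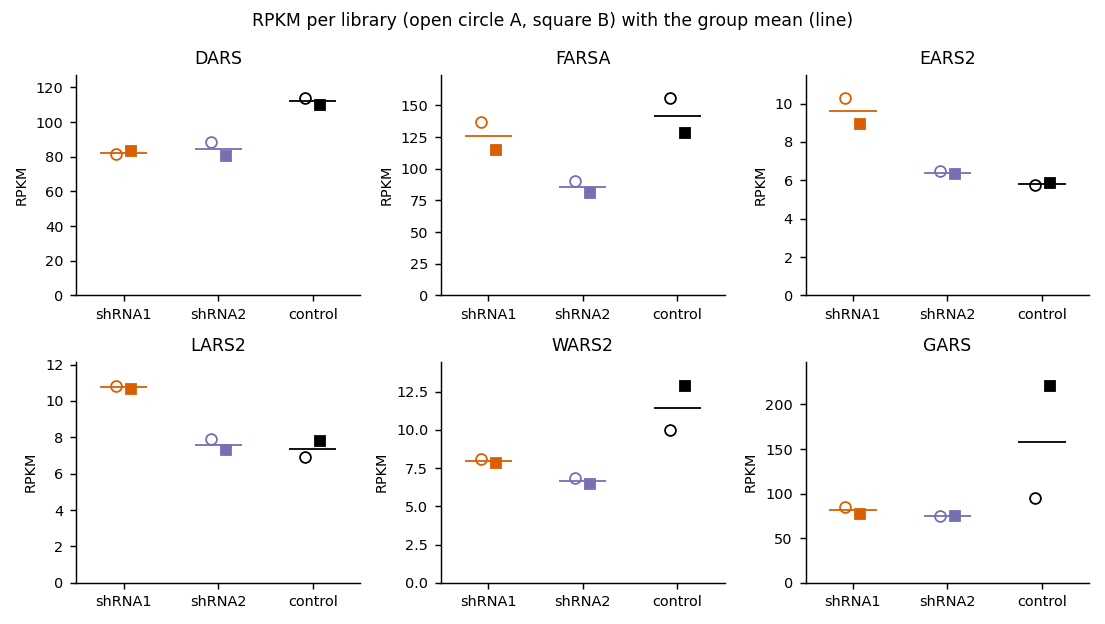
RPKM of the 5 synthetases called against the control with either hairpin, and of GARS, with open circles for library A, squares for library B and lines for group means. EARS2 and LARS2 are high in the TAZ shRNA1 libraries, WARS2 and DARS are low in all hairpin libraries, and the control libraries of GARS lie apart at 94.7 and 221 RPKM.

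The hairpins were compared with each other in a fit of all 6 libraries, in which the control does not enter the difference. The control libraries do enter its SE, so a gap between them widens the SE of the cytosolic members concerned, such as IARS. shRNA2 gave lower values than shRNA1 for 17 of 20 cytosolic members (median log2 difference −0.12) and 14 of 16 mitochondrial members (median −0.13), while the median over all genes was −0.01. Of the 36 members, 2 were called, both lower, against 10.9% of genes in either direction and 6.10% lower. EARS2 and LARS2 were lower with shRNA2 than with shRNA1 (log2 difference −0.55, SE 0.13, adjusted p = 0.032, and −0.47, SE 0.13, adjusted p = 0.047). No cytosolic member was called by limma, 3 being lower at an unadjusted p under 0.05 (14.3% of genes were), and 1 was called by limma-voom on recovered reads. Both shRNA2 libraries lay below both shRNA1 libraries for 14 cytosolic and 10 mitochondrial members, against 31.2% of genes. FARSA, IARS and MARS2 had log2 differences of −0.55, −0.62 and −0.54 that missed the threshold (adjusted p = 0.058, 0.11 and 0.066).

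Within the cytosolic set, 8 enzymes belong to the multisynthetase complex, which is held together by the scaffold proteins AIMP1, AIMP2 and EEF1E1. The 8 had a median log2 fold change of −0.18 with shRNA1 and −0.38 with shRNA2, and the 12 outside the complex −0.29 and −0.52. Of the complex enzymes 1 was called with shRNA1 (DARS) and 0 with shRNA2, where 3 were lower at an unadjusted p under 0.05 (16.1% of genes were) and 0 were called by limma-voom. EEF1E1 had 31.2 and 29.8 RPKM with shRNA1 and 35.7 and 25.8 RPKM with shRNA2, against 45.2 and 48.7 RPKM in control A and B. It fell with shRNA1 (−0.61, adjusted p = 0.014) and missed the threshold with shRNA2 (−0.62, adjusted p = 0.055). Its shRNA1 call was lost without shRNA1 A or B (adjusted p = 0.068 and 0.14) and with the gene length trend removed (0.10). The scaffold genes differed by at most 1.08-fold between the controls. All 3 had both shRNA1 libraries below both controls, as did 32.5% of all genes.

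Downstream of the synthetases, elongation factors take charged tRNA to the ribosome. Of 6 such genes tested, 1 fell with shRNA1 and 2 fell with shRNA2, against 8.58% and 7.61% of all genes, and none rose. EEF1D, an exchange factor for the cytosolic elongation factor, had 158 and 142 RPKM with shRNA1 and 150 and 134 RPKM with shRNA2, against 236 and 201 RPKM in control A and B. It fell with both hairpins (−0.54 and −0.62, adjusted p = 0.036 and 0.0498). TUFM, the mitochondrial elongation factor Tu, had 168 and 142 RPKM with shRNA1 and 144 and 131 RPKM with shRNA2, against 218 and 211 RPKM in control A and B. TUFM fell with shRNA2 (−0.64, adjusted p = 0.038) and its value with shRNA1 was −0.47 (adjusted p = 0.0502). For both genes every hairpin library lay below both controls. The shRNA1 call of EEF1D was lost without shRNA1 A or B (adjusted p = 0.15 and 0.36), and the shRNA2 calls of both genes were lost without any 1 of the 4 libraries (0.067 to 0.23 for EEF1D, 0.074 to 0.19 for TUFM).

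Human mitochondria make glutaminyl-tRNA through EARS2 and an amidotransferase, and formylate the initiator methionyl-tRNA. Of the 4 tested genes for these steps (PET112, GATC, QRSL1 and MTFMT), 0 were called with either hairpin (0 also at an unadjusted p under 0.05 and by limma-voom), with log2 fold changes of −0.10 to 0.14 with shRNA1 and −0.13 to 0.17 with shRNA2. The amidotransferase genes PET112, GATC and QRSL1 were thus not called with shRNA1, where EARS2 was. PET112 was the only 1 of the 4 with both shRNA1 libraries above both controls (19.0 and 20.7 RPKM, against 18.2 and 17.7 RPKM in control A and B).

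Of 6 genes that edit or release tRNA cargo, 1 fell with shRNA2, against 7.61% of all genes, and none rose. It was DTD1, a D-aminoacyl-tRNA deacylase (log2 fold change −0.60, adjusted p = 0.029). Leaving out any 1 of the 4 libraries ended that call (0.053 to 0.11). Of 10 tRNA maturation and export genes, none was called with shRNA1 (0 also at an unadjusted p under 0.05 and by limma-voom) and 1 fell with shRNA2 (ELAC2, which trims the 3′ end of tRNA precursors, −0.50, adjusted p = 0.046, and 0.096 to 0.21 without any 1 library). TSEN15, a subunit of the tRNA splicing endonuclease, had 29.4 and 29.0 RPKM with shRNA1 and 32.9 and 27.4 RPKM with shRNA2, against 29.3 and 63.9 RPKM in control A and B. TSEN15 was 1 of 2 genes among these 10 that were at least 1.5-fold higher in control B, and 1 was lower by at least as much. Over all genes, 3.26% were that much higher and 5.56% that much lower.

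RNA polymerase III and its factors, which transcribe tRNA genes, gave 3 calls of 21 with shRNA1 (14.3%) and 1 with shRNA2 (4.76%). Both shares lay below the 18.6% and 15.7% of all genes that were called. GTF3A, which binds 5S ribosomal RNA genes, fell with shRNA1 (−0.59, adjusted p = 0.017), as did the subunit gene POLR3GL, and GTF3C4 rose (0.55, adjusted p = 0.030). POLR3G had 7.32 and 7.59 RPKM with shRNA1 and 3.73 and 2.56 RPKM with shRNA2, against 8.08 and 7.87 RPKM in control A and B. POLR3G and POLR3GL encode alternative versions of one polymerase III subunit, and POLR3G fell with shRNA2 (−1.24, adjusted p = 0.0085) whereas POLR3GL fell with shRNA1 (−0.54, adjusted p = 0.034). Between the hairpins POLR3G was lower (−1.14, adjusted p = 0.0053) and POLR3GL higher (0.56, adjusted p = 0.040) with shRNA2 than with shRNA1. Each shRNA1 call of the list was lost without shRNA1 A or B (adjusted p = 0.12 and 0.18 for GTF3A, 0.072 and 0.33 for POLR3GL, 0.13 and 0.29 for GTF3C4). Between the hairpins the POLR3G call was lost without shRNA1 A or B (0.052 and 0.066) and the POLR3GL call without any 1 hairpin library (0.067 to 0.30). POLR3G, POLR3GL, GTF3C4, DDIT3 and ELAC2, and among the synthetases IARS, MARS, MARS2, QARS and RARS, were named after their values were seen.

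Of the 8 genes of the amino acid stress axis, 4 fell with shRNA1 and 2 with shRNA2, against 8.58% and 7.61% of all genes, and none rose. ATF4 and TRIB3, a pseudokinase induced by ATF4, fell with both hairpins. The log2 fold changes of ATF4 were −1.15 and −1.56 (adjusted p = 0.0077 and 0.0057, and 0.059 with shRNA1 without shRNA1 B), and those of TRIB3 −1.47 and −1.48 (adjusted p = 0.0037 and 0.0058). For ASNS the fold changes of −1.38 and −1.75 missed the threshold (adjusted p = 0.11 and 0.062), with SEs of 0.54 and 0.53 over control libraries that differed 4.05-fold.

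The authors' deposited table holds their own test of the same libraries, at an adjusted p under 0.05. In the authors' deposited table, 6 cytosolic members fell and 0 rose with shRNA1, and 13 fell and 0 rose with shRNA2, where 17.1% and 18.9% of genes fell and 18.8% and 19.9% rose. For mitochondrial members, the authors' deposited table has 3 that rose and 2 that fell with shRNA1 and 5 that fell with shRNA2. Those counts exceed the limma counts given above, which were 1, 1, 2, 0 and 1.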

How the data were processed

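RNA of 6 OCI-AML2 libraries was sequenced. Per the submitters' processing notes, build hg19 and the tools HTSeq 0.6.1p2, DESeq 1.18.0, edgeR 3.8.6, TopHat2 2.0.11 and Trim Galore 0.4.0 were used, with no roles given. The deposited tables, 1 for each hairpin, hold per the file headers the RPKM of every library and, from the authors, a log2 fold change, an average log2 CPM, a test score and p-values. Strand use in the counting is not given in the sources used here. Table titles and letters gave the library of each column, with 0 left over. After 21 date-like symbols were named again and 2 repeats dropped, 13002 genes remained. RPKM steps gave whole reads (within 0.02 reads) for 12843 genes (98.8%), including all 36 members.

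Fits of 4 libraries compared a hairpin with the control, with limma 3.58.1 (R 4.3.3) on log2(RPKM + 0.5), genes averaging at least 1 RPKM, with a variance trend, two-sided, adjusted over all genes tested, at a threshold of 0.05. On this scale fold changes of low genes are understated. The script was tested on simulated data. The members and lists were chosen with earlier results of these data known. Some genes of the pathway lists are not reported here. Members given in every library were the 12 with the smallest larger p of both hairpins, those called, WARS, GARS, KARS, HARS, HARS2 and the highest and lowest of each compartment; up to 4 genes per pathway list followed the same p. Alternatives were other pseudocounts, filters and normalizations, limma-voom on recovered reads, the letters A and B as a block, and each library left out.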

Additional observations from a re-analysis of the deposited data

Results flagged for a closer look

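The responses of 2 mitochondrial synthetases to the hairpins differed by a direct test of shRNA2 against shRNA1. For EARS2 the log2 difference was −0.5457, with 6.50 and 6.31 RPKM with shRNA2 and 10.3 and 8.92 RPKM with shRNA1. For LARS2 it was −0.4741, with 7.92 and 7.28 RPKM with shRNA2 and 10.8 and 10.6 RPKM with shRNA1. Each difference lost its call when any 1 hairpin library was left out (limma adjusted p = 0.11 to 0.27 for EARS2 and 0.12 to 0.27 for LARS2). With 2 libraries per group, no library could be tested for standing apart from its group.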

How the results depend on the processing

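The medians of both compartments kept their direction in all 3 comparisons under every alternative run but one: without control B the shRNA1 median of the cytosolic members was 0.09. Counts of called members moved more. For cytosolic members with shRNA1, against 1 in the report, 2 were called with the gene length trend removed, 2 by limma-voom, 0 with quantile normalization and 6 with the replicate block. For cytosolic members with shRNA2, against 1, there were 6 in a fit of all 6 libraries, 5 with the length trend removed, 3 by limma-voom and 11 with the block. For mitochondrial members, against 2 with shRNA1, there were 4 with quantile normalization and 5 with the block, and against 1 with shRNA2, 3 with the block. Between the hairpins, against 0 cytosolic, there were 1 with the length trend removed, 1 by limma-voom, 1 with quantile normalization and 3 with the block, and against 2 mitochondrial, 1 without a filter. With 1 library left out, calls ranged over 0 to 14 cytosolic and 0 to 4 mitochondrial members with shRNA1, 0 to 10 and 0 to 1 with shRNA2, and 0 to 3 and 0 to 3 between the hairpins. The medians ranged over −0.49 to 0.09 and −0.09 to 0.00 with shRNA1, −0.61 to −0.12 and −0.29 to −0.15 with shRNA2, and −0.17 to −0.12 and −0.26 to −0.12 between them. A group left with 1 library adds nothing to the spread of such a fit, so its calls rest on the spread of other libraries. Apart from the left-out controls, whose values are in the report, the cause of these moves was not tested. DARS with shRNA1 lost its call with quantile normalization (adjusted p = 0.0501) and LARS2 between the hairpins without a filter (0.061).

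Nothing states that the letters pair the libraries, and each comparison holds only 2 pairs. Across 10660 genes, differences between B and A correlated at 0.26 between shRNA1 and control, 0.42 between shRNA2 and control and 0.37 between shRNA2 and shRNA1. With the block, CARS, DARS, FARSB, GARS, VARS, YARS, WARS2 and YARS2 were called lower with both hairpins. The share of all genes called with the block is not given here. A rise in calls over all genes therefore cannot be told apart from one in the synthetases. The letters are shared labels, not a stated pairing. A planned quasi-likelihood test on recovered reads was not run. Depth limits PARS2 most, at 94 reads in its lowest library.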
